A study of Mus musculus with 6 samples.

Results

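*Nanog*, *Tcl1*, *Zfp42*, *Tfcp2l1*, *Tbx3* and *Eras*, 6 genes of the naive pluripotency network, were followed over 6 arrays of mouse embryonic stem cells (ESCs) and epiblast-like cells (EpiLCs). All probe sets whose single annotated symbol is one of these names were taken, which gave 8 probe sets for the 6 genes, out of 45037 probe sets and 17097 named genes. *Tbx3* had 3 probe sets and every other gene had 1. The parent cells were E14tg2a mouse ESCs. By the study's methods, picked colonies of this line carried a piggyBac Tet-on cassette for FLAG-tagged *Prdm14*, so that doxycycline switched the transgene on. There is 1 array each of ESCs, of EpiLCs (d2) and (d4), and of EpiLCs + PRDM14. The 3 EpiLC arrays carry a scramble shRNA label, and the ESC array has no shRNA label. A further pair of arrays, EpiLCs (d2) and EpiLCs + PRDM14, is labelled *Tet1*/*Tet2* KD, from lentiviral shRNAs. EpiLCs were made with activin A, bFGF and KSR for 2 days, and were then replated in GK15 medium with or without doxycycline. The labels give no day for the + PRDM14 arrays, and there is no d4 array labelled KD, so time and medium cannot be told apart from doxycycline when a + PRDM14 array is set against a d2 array. ESCs were kept without feeders in serum medium to which LIF was added. For EpiLC induction, the methods describe ESCs in N2B27 medium with LIF and the inhibitors CHIR99021 and PD0325901. Which of these media the ESC array had is not established here.

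Naive pluripotency is the state of the preimplantation epiblast, which mouse ESCs hold in culture, and EpiLCs resemble the later, formative or primed epiblast. In mouse ESCs NANOG, TFCP2L1 and TBX3 are transcription factors that sustain self-renewal and lie partly downstream of LIF, while ZFP42 (REX1) is a zinc finger protein used as a marker of the naive state. TCL1 binds AKT and raises its activity, and ERAS is an ES-cell Ras-like protein that stays active and signals through PI3K, so that both act on the PI3K-AKT axis of proliferation. PRDM14 is a PR domain protein of ESCs and germ cells. TET1 and TET2 oxidise 5-methylcytosine.

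With 1 array per condition no difference has a replicate check, and no test was possible. Values are log2 signals above the median of all probe sets on the same array, called levels here, and a difference of at least 1.5-fold (0.585 on the log2 scale) is called. The median was subtracted because the deposited medians of the 2 arrays labelled KD were 5.07, where the other 4 had 5.28 to 5.29. The *Prdm14* probe set stood at 1.67 in ESCs and between -0.37 and -0.10 on the 5 EpiLC arrays, so neither array labelled + PRDM14 was higher for it, and whether the probes match the transgene was not tested. At its brighter probe set *Tet2* read 3.25 in EpiLCs (d2) and 3.43 on the d2 array labelled KD, then 3.23 and 2.69 on the + PRDM14 arrays without and with that label. A dimmer *Tet2* probe set read 0.67, 0.88, 0.81 and 0.64 on these arrays in the same order. *Tet1* was not analysed here. Directions below therefore rest on the labels. Primed epiblast genes set the ESC and EpiLC labels apart, with *Pou3f1* at -0.38 in ESCs and at 3.73 and 4.11 in EpiLCs (d2) and (d4), and the 10 housekeeping genes had no member past 1.5-fold between EpiLCs + PRDM14 and EpiLCs (d2). Some of them passed it elsewhere. *Pgk1* was lower in ESCs than in EpiLCs (d2) (-0.66) and EpiLCs + PRDM14 (-0.78), *Tfrc* was 0.83 higher in ESCs than in EpiLCs + PRDM14, and *Gusb* was lower with PRDM14 in the KD-labelled pair (-0.66). Fibroblast, trophoblast and endoderm marker lists of 6 genes each had 1, 3 to 4 and 3 to 4 members above the array median, and their summed linear levels ranged from 3.64 to 4.75, 8.97 to 12.3 and 6.70 to 8.06 times that median. The part of these markers in the results was not tested.

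Promoters of the genes are shown first, because members that moved together between ESCs and EpiLCs differ in what they carry at the start site. The RefSeq promoter table (GRCm38.p6) held windows of 250 bases before to 50 after the start for 5 of the 6 genes, and *Tbx3* is named only. The upstream 250 bases of *Nanog* (chr6:122707239-122707488, plus strand), *Tcl1* (chr12:105222738-105222987, minus strand) and *Zfp42* (chr8:43307010-43307259, minus strand) are given below 5′ to 3′ in the direction of transcription, and capitals mark ATGCAAA (the octamer core), ACAATG (a SOX core) and CCGG (the HpaII and MspI site), each on either strand.
Nanog: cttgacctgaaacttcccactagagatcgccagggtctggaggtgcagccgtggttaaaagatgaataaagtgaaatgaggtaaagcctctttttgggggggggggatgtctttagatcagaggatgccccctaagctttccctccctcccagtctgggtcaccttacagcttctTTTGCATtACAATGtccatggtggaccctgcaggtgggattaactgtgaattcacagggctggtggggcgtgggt
Tcl1: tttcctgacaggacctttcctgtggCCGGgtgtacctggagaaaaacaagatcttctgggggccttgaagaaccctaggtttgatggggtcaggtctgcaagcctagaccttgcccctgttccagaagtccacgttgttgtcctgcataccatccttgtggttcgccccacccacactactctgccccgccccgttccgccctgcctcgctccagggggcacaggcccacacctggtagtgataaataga
Zfp42: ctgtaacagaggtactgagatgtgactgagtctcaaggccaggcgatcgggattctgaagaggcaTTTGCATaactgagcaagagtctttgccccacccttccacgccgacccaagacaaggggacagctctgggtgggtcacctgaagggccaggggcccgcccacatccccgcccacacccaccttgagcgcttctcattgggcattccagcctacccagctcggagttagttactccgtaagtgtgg

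The *Nanog* window held an octamer core that began 75 bases before the start and a SOX core that began 67 bases before it. A second, overlapping *Nanog* window in the table, whose start lies downstream, held the same pair at 151 and 143 bases. The *Zfp42* window held an octamer core at 185 bases before the start, and *Eras* held a SOX core at 48 bases. Among all 32851 windows, 4.63% held the octamer core and 12.6% held ACAATG. No member window held ACAAAG, GGTCTCTAA (a PRDM14 motif), TCAAGGTCA (ESRRB), TTCCNGGAA (STAT) or AGGTGTGA (T-box), which 18.7%, 0.256%, 0.423%, 1.15% and 1.28% of all windows held on either strand, while GGGNGGGG (KLF/SP) lay in 4 of the 5 genes' windows and in 33.2% of all. The 4 *Nanog* matches to GGGNGGGG overlap one another in 1 run of G.

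CG content differed among the windows. *Nanog* held 4 CG dinucleotides, *Eras* 8, *Tcl1* 11, *Zfp42* 11 and *Tfcp2l1* 21, where the median window held 7. A CCGG, which contains a CG and which 52.8% of windows held, was found 1 time in *Tcl1* at 225 bases before the start, 1 time in *Zfp42* at the start itself and 3 times in *Tfcp2l1*, at 124, 97 and 17 bases before the start. It was not found in the windows of *Nanog* or *Eras*. CCGG is the site that an assay of hydroxymethylation by glucosylation and MspI digestion reads. The reverse primer designed for that assay at the *Tcl1* start, gcaaggtctaggcttgcagac, matched the antisense strand of this window from 157 to 137 bases before the start, downstream of the CCGG. Its forward partner was not in the window, and the *Nanog* and *Tfcp2l1* primers of the same assay matched none of the windows of those genes. These matches describe letters, not bound sites.

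*Nanog* was high on 3 arrays and lower on the other 3. ESCs gave a level of 5.04, EpiLCs gave 2.63 at d2 and 3.15 at d4, and EpiLCs + PRDM14 gave 4.97. On the arrays labelled KD it was 3.70 at d2 and 5.20 with PRDM14. Hence the KD-labelled PRDM14 array was the top array, ESCs and EpiLCs + PRDM14 followed within 0.23 of it, and the next array down was 1.26 lower. *Nanog* ran over 2.57 log2 units between its lowest and highest array, the 106th widest range among the 17097 genes. *Nanog* has pseudogenes in the mouse genome, and what part of the signal comes from them was not tested.

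*Zfp42* kept a high signal throughout. It read 6.90 in ESCs, 5.50 and 5.67 in EpiLCs at d2 and d4, 6.80 in EpiLCs + PRDM14, and 6.05 and 6.56 on the KD-labelled d2 and PRDM14 arrays. Even its lowest array placed it at or above 98.3% of all probe sets. Its range of 1.41 was the narrowest of the 6 genes, and no neighbouring pair in its order of arrays was 1.5-fold apart. It too has a pseudogene.

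*Tfcp2l1*, a CP2 family factor that LIF-STAT3 signalling induces in mouse ESCs, was highest in ESCs by a margin. The ESC level was 3.78, where EpiLCs had 1.18 at d2, 1.28 at d4 and 2.28 with PRDM14. The KD-labelled arrays gave 1.88 at d2 and 2.79 with PRDM14. ESCs stood 0.99 above the next array, so no EpiLC array reached the ESC level for this gene.

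*Tbx3* was read by 3 probe sets that did not behave alike. The brightest, 1448029_PM_at, gave 3.85 in ESCs, 1.84 and 2.12 in EpiLCs at d2 and d4, 2.58 with PRDM14, and 2.41 and 3.36 on the KD-labelled d2 and PRDM14 arrays. Probe set 1437479_PM_x_at gave 3.0, -0.08, 0.01, 0.93, 1.35 and 2.15 in the same order. Both had ESCs on top and the KD-labelled PRDM14 array next. The third, 1439567_PM_at, stayed between -1.01 and -0.71 on all 6 arrays, below the median probe set, and showed no difference of 1.5-fold in any pair. The suffix x_at marks probes that may also match other transcripts.

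*Tcl1* had the widest range of the 6 genes, 2.67. It stood at 3.01 in ESCs, dropped to 0.60 and 0.52 in EpiLCs at d2 and d4, and read 3.20 with PRDM14, the top array. The KD-labelled arrays lay between, at 1.82 at d2 and 2.70 with PRDM14. The d2 and d4 scramble arrays formed the low end, 1.22 below the KD-labelled d2 array.

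*Eras* followed a different order from the rest. ESCs read 4.92, and the scramble EpiLCs read 3.46 at d2, 3.62 at d4 and 4.08 with PRDM14. On the KD-labelled arrays it read 3.87 at d2 and 3.23 with PRDM14, the lowest value of all. Only the gap of 0.84 between ESCs and the next array reached 1.5-fold, and its 1 probe set is also of the x_at kind.

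**Figure D1:**
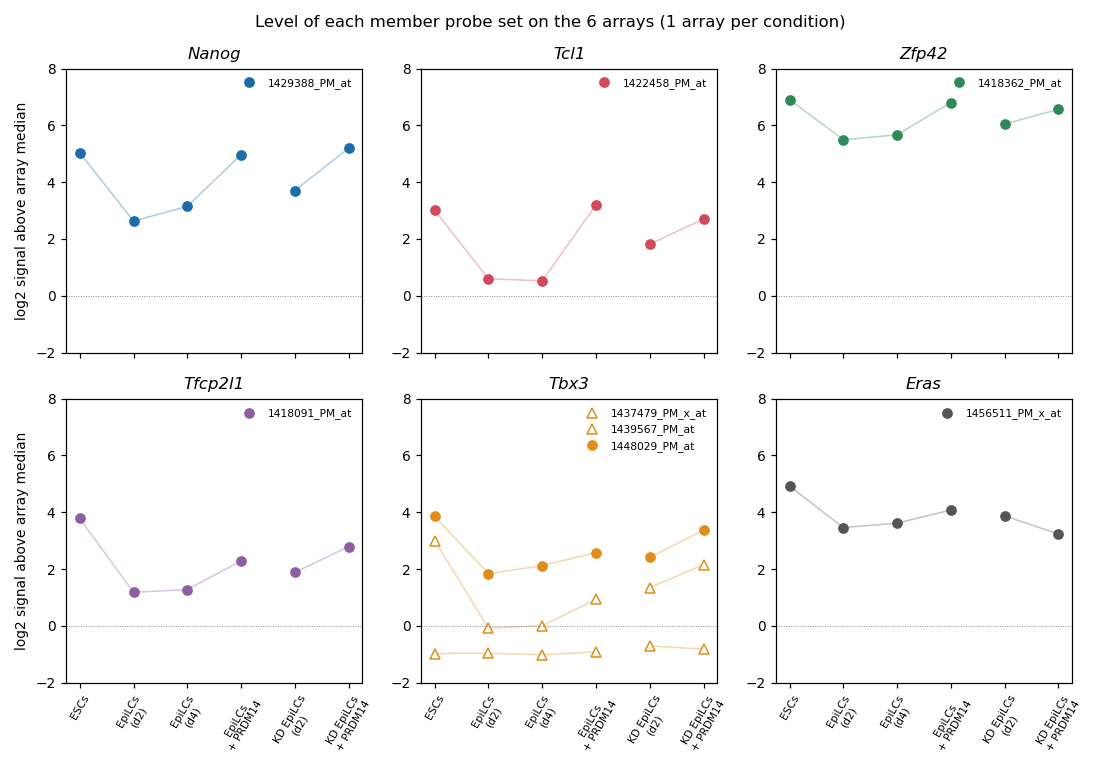
Log2 signal above the array median (vertical axis) of each probe set of the 6 genes on the 6 arrays (horizontal axis, 1 array per condition); filled circles are the brightest probe set of a gene, open triangles the other probe sets of *Tbx3*, lines only join the arrays without and with the KD label, and the dotted line is the array median. *Eras* is lowest on the KD-labelled PRDM14 array at 3.23, while *Nanog* is highest there at 5.20.

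The first comparison asked how the network differed between ESCs and EpiLCs. All 6 genes were called higher in ESCs than in EpiLCs (d2), where 2.64% of the 17097 genes were called in that direction. Differences were 2.60 for *Tfcp2l1*, 2.41 for *Tcl1*, 2.41 for *Nanog*, 2.01 for *Tbx3*, 1.46 for *Eras* and 1.41 for *Zfp42*, or 2.65-fold to 6.06-fold. The median over the 6 was 2.21, beside a median of -0.0004 over all genes. *Tfcp2l1*, *Tcl1* and *Nanog* ranked 10th, 15th and 17th among all genes in this direction.

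Between EpiLCs (d2) and EpiLCs (d4) none of the 6 genes was called, beside 2.18% of genes called higher at d4. *Nanog* was nearest, 0.52 higher at d4, and *Tcl1* was 0.08 lower. The median was 0.16.

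The next comparison asked which of them were higher with PRDM14. Compared with EpiLCs (d2), all 6 were called higher in EpiLCs + PRDM14, where 2.72% of genes were called in that direction. The differences spread widely, from 2.60 for *Tcl1* (6.05-fold, 6th of all genes) and 2.34 for *Nanog* (5.06-fold, 12th) through 1.31 for *Zfp42* and 1.10 for *Tfcp2l1* to 0.74 for *Tbx3* and 0.62 for *Eras*. The last pair stand just past the threshold, at 1.67-fold and 1.54-fold. Set against EpiLCs (d4), 4 genes were called, beside 1.86% of genes. *Tcl1* was 2.67 higher, the second largest difference of any gene, *Nanog* 1.82, *Zfp42* 1.13 and *Tfcp2l1* 1.01, while *Tbx3* and *Eras* were each 0.46 higher and were not called. The x_at probe set of *Tbx3* was 0.92 higher than in EpiLCs (d4), past 1.5-fold, so the call for *Tbx3* depends on the probe set. Both comparisons use the same EpiLCs + PRDM14 array.

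How close the EpiLCs + PRDM14 array came to ESCs differed by gene. ESCs were called higher for 3 genes, *Tfcp2l1* by 2.82-fold, *Tbx3* by 2.41-fold and *Eras* by 1.79-fold, beside 2.25% of genes called in this direction. For *Nanog*, *Zfp42* and *Tcl1* the ESC array differed from it by 0.07, 0.10 and -0.18. Of the 452 genes called higher in ESCs than in EpiLCs (d2), 205 were also called higher in ESCs than in EpiLCs + PRDM14. These comparisons share the ESC array, so the counts are given as a description.

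**Figure D2:**
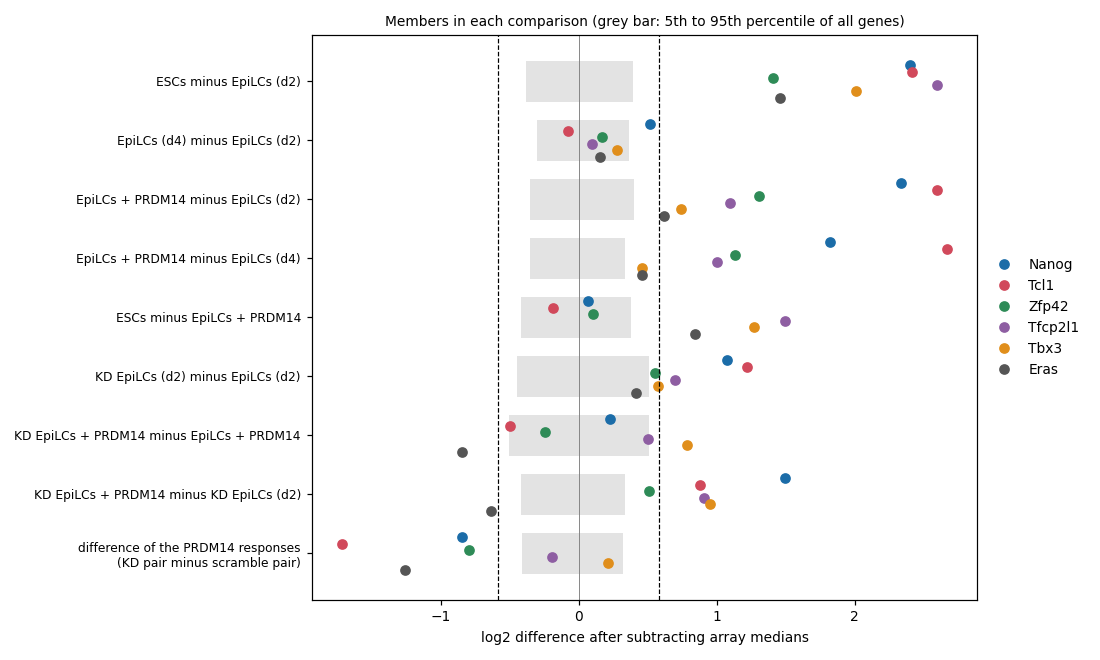
Log2 difference (horizontal axis) of the brightest probe set of each gene in each pair of arrays and, in the lowest row, the difference between the 2 PRDM14 differences; grey bars span the 5th to 95th percentile of all 17097 genes and dashed lines mark 1.5-fold. All 6 genes lie to the right of the line in ESCs minus EpiLCs (d2) and in EpiLCs + PRDM14 minus EpiLCs (d2), and *Eras* alone lies to the left of it in KD EpiLCs + PRDM14 minus KD EpiLCs (d2).

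The arrays labelled KD were then compared with their scramble counterparts. At d2 all 6 genes were above 0, and 3 were called higher with the KD label, *Tcl1* by 1.22, *Nanog* by 1.07 and *Tfcp2l1* by 0.70, beside 3.3% of genes called in this direction. *Tbx3* at 0.57 and *Zfp42* at 0.55 lay just under the threshold, and *Eras* was at 0.41. The x_at probe set of *Tbx3* was 2.69-fold higher here, so that gene changes side with the probe set used. The call for *Tfcp2l1* was lost in the values as deposited, where it was 0.48. *Tet2* was 0.17 higher with the label at d2 at its brighter probe set and 0.21 higher at the dimmer one.

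The + PRDM14 arrays without and with the KD label were compared next. *Tbx3* was called higher with the label (0.78), where 3.58% of genes were, and *Eras* was called lower (-0.84), where 3.38% of genes were. *Tfcp2l1* was 0.50 and *Nanog* 0.23 higher, and *Zfp42* was 0.24 and *Tcl1* 0.50 lower with the label, none of which was called. The median of the 6 was -0.01. In the values as deposited the difference for *Tbx3* was 0.57 and was not called, whereas that of *Tcl1* was -0.71 and was called.

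Within the KD-labelled pair, 4 genes were called higher with PRDM14, beside 2.12% of all genes. *Nanog* was 1.49 higher, *Tbx3* 0.95, *Tfcp2l1* 0.91 and *Tcl1* 0.88, and *Zfp42* was 0.51 higher and was not called. *Eras* was called lower at -0.64, beside 2.53% of genes called lower and a housekeeping gene, *Gusb*, at -0.66. Its value was -0.46 when arrays were centred on housekeeping genes, which ends the call, and *Zfp42* became called there at 0.69.

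The 2 PRDM14 differences, which share no array, were set side by side. Subtracting the scramble difference from that of the KD-labelled pair gave -1.72 for *Tcl1*, -1.26 for *Eras*, -0.84 for *Nanog*, -0.79 for *Zfp42*, -0.19 for *Tfcp2l1* and 0.21 for *Tbx3*. The first 4 were past 1.5-fold on the lower side, beside 2.25% of genes, and *Tcl1* was the 7th lowest and *Eras* the 39th lowest of all. For *Nanog* and *Tcl1* the KD-labelled d2 array stood 1.07 and 1.22 above the scramble d2 array, while on the PRDM14 arrays the label went with differences of 0.23 and -0.50, and these values make up the smaller PRDM14 difference of the KD-labelled pair. With EpiLCs (d4) as the scramble reference the value for *Nanog* was -0.33 and no longer past 1.5-fold. Of the 465 genes called higher with PRDM14 in the scramble pair, 211 (45.4%) were called higher in the KD-labelled pair, 45 (9.68%) were below 0 there, and 8 (1.72%), with *Eras* among them, were called lower.

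**Figure D3:**
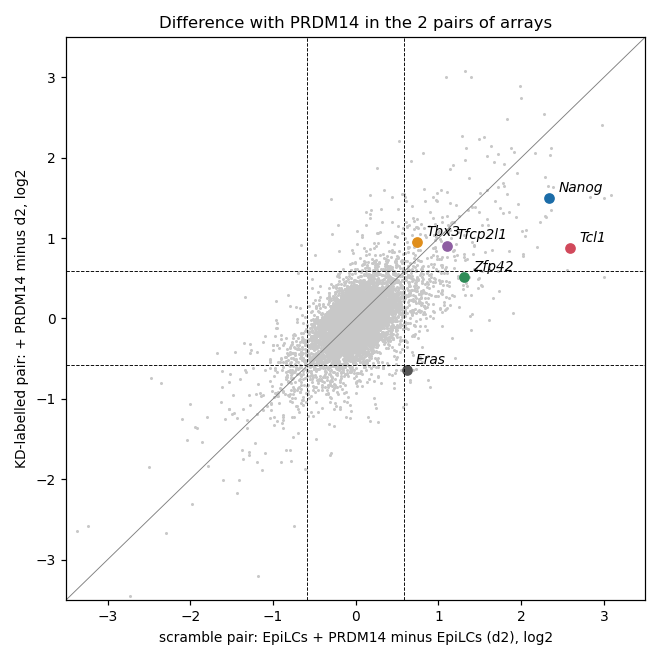
Each point is a gene at its brightest probe set, with the log2 difference between EpiLCs + PRDM14 and EpiLCs (d2) on the scramble arrays (horizontal axis) and on the arrays labelled KD (vertical axis); the 6 genes are named, dashed lines mark 1.5-fold and the diagonal marks equal differences. *Tbx3* and *Tfcp2l1* lie near the diagonal, *Nanog* and *Tcl1* to its right, and *Eras* in the lower right at 0.62 and -0.64.

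Genes of the surrounding network were given from fixed lists. Of 17 other naive network genes measured, 9 were called higher and 0 lower with PRDM14 in the scramble pair, with a median of 0.60 beside -0.009 for all genes, of which 2.72% were called higher and 1.91% lower. The furthest were *Jam2* (2.56), which encodes a junctional adhesion molecule, *Klf4* (1.99), a Krüppel-like reprogramming factor, and *Dppa3* (1.91), also known as Stella. In ESCs, however, *Dppa3* was lower than in EpiLCs (d2) (-0.78) and in EpiLCs + PRDM14 (-2.69). Of the 17, 11 were called higher and 2 lower in ESCs than in EpiLCs (d2), beside 2.64% and 2.35% of all genes. *Klf4* was 2.75 higher with PRDM14 in the KD-labelled pair, where 7 of the 17 were called higher and 1 lower. In that pair 2.12% of all genes were called higher and 2.53% lower. Of 15 primed epiblast genes 10 were called lower and 0 higher in the scramble pair, with *Pou3f1* at -3.37, *Gja1* at -2.35 and *Sox4* at -2.29, and 9 were called lower in the KD-labelled pair. *Fgf5*, the growth factor gene that marks EpiLCs, was 0.94 lower with PRDM14 in the scramble pair and 0.92 lower in the KD-labelled pair, and *Pou5f1* (OCT3/4) was within 1.5-fold in every pair of arrays. A dimmer *Fgf5* probe set, below the array median on every array, was at -0.05 in the scramble pair and -0.12 in the KD-labelled pair.

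LIF-STAT3 pathway genes had 3 of 13 called higher and 1 lower with PRDM14, with a median of 0.08. For this list and the next ones, the shares of all genes called were 2.72% higher and 1.91% lower. *Pim2*, a kinase gene, was 2.48 lower, *Socs2*, a feedback inhibitor of cytokine signalling, was 1.11 higher, and *Il6st*, which encodes the shared receptor chain gp130, was 0.80 higher. Set against EpiLCs (d4), *Pim2* was 3.25 lower and *Il6st* 0.62 higher in EpiLCs + PRDM14, while *Socs2* at 0.53 was not called. Among 21 PI3K-AKT genes, the axis on which TCL1 and ERAS act, 2 were called higher, *Foxo3* (1.25), a transcription factor that AKT keeps out of the nucleus, and *Pik3cb* (0.65), a catalytic subunit, and *Pdpk1* was at 0.37. Their median was 0.02. *Foxo3* was also 0.79 higher in EpiLCs (d4) than in EpiLCs (d2). Set against EpiLCs (d4), *Foxo3* at 0.46 and *Pik3cb* at 0.48 were not called in EpiLCs + PRDM14. Of 20 genes whose proteins have been found with NANOG, 1 was called, *Zfp281* at -0.61. *Sall4* at 0.55 and *Sox2* at 0.54 were not called. Set against EpiLCs (d4), *Zfp281* was at -0.61 and *Sox2* at 0.69 in EpiLCs + PRDM14, both called, and *Sall4* was at 0.20.

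Relatives of the 6 genes were taken by family. The share of all genes called lower was 2.35% in ESCs minus EpiLCs (d2), 2.9% in ESCs minus EpiLCs + PRDM14 and 2.25% for the KD label at d2. The Tcl1 family members *Tcl1b1*, *Tcl1b3*, *Tcl1b4* and *Mtcp1* lay between -0.15 and 0.09 in EpiLCs + PRDM14 minus EpiLCs (d2), and 0 of 4 were called in any pair. In the T-box family 0 of 14 were called in that comparison. With the KD label *Tbx5* was 0.83 lower at d2 and 0.74 lower with PRDM14, *Tbx6* was 0.63 higher at d2, and *Mga* was 0.79 lower with PRDM14. *Tbx6* lay below the array median on both d2 arrays, at -0.71 without and -0.08 with the label. *Tbx5* read 1.00 to 1.17 on all arrays without the label, and 0.34 and 0.26 on those with it. *Yy1*, a zinc finger relative of *Zfp42*, was at 0.12 in EpiLCs + PRDM14 minus EpiLCs (d2). Of 5 CP2 and grainyhead genes, relatives of *Tfcp2l1*, 1 was called in that comparison, *Grhl2*, which was 0.77 lower in both ESCs and EpiLCs + PRDM14 than in EpiLCs (d2), and was 0.75 lower with PRDM14 in the KD-labelled pair. Set against EpiLCs (d4), *Grhl2* was 0.45 lower in EpiLCs + PRDM14 and was not called. *Grhl1* in ESCs was 0.75 below its level in EpiLCs (d2) and 1.09 below that in EpiLCs + PRDM14, and *Grhl3* was 0.84 higher with the KD label in the presence of PRDM14 and 0.95 higher with PRDM14 in the KD-labelled pair. Among 13 Ras family genes *Rala* was called higher with PRDM14 in both pairs (0.63 and 0.60), *Rap2c* (0.61) at d4 (and -0.59 in ESCs minus EpiLCs + PRDM14), *Rras2* (0.60) with the KD label and PRDM14, and *Nras* was 0.66 lower with PRDM14 in the KD-labelled pair. Set against EpiLCs (d4), *Rala* was 0.31 higher in EpiLCs + PRDM14 and was not called.

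**Figure D4:**
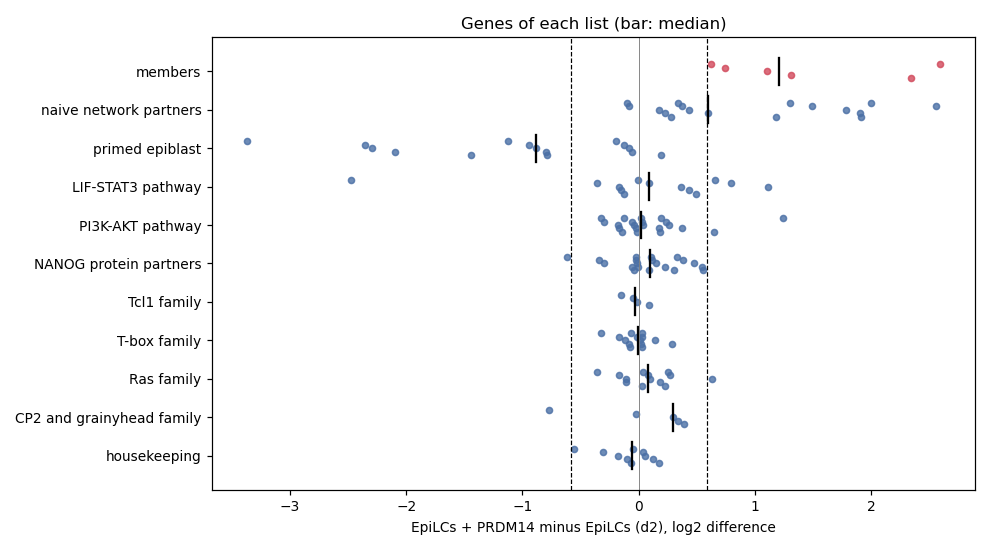
Log2 difference between EpiLCs + PRDM14 and EpiLCs (d2) on the scramble arrays (horizontal axis) for each measured gene of the lists (rows); points are genes at their brightest probe set, the black bar is the list median and dashed lines mark 1.5-fold. The 6 genes have a median of 1.20, other naive network genes 0.60, primed epiblast genes -0.88, and the families of *Tcl1* and *Tbx3* lie within 1.5-fold.

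Likeness between profiles was described by the Pearson correlation over the 6 arrays, among 1796 probe sets that varied by at least 1 log2 unit. *Nanog* was most like *Lmo7* (0.994), *Id3* (0.992), a target gene of BMP signalling, and *Slc25a20* (0.991). *Tcl1* was most like *Nexmif* (0.992), *Gjc1* (0.988) and *Nr5a2* (0.987), an orphan nuclear receptor gene. *Zfp42* was most like *Usp48* (0.988), *Nexmif* (0.987) and *Tcl1* (0.982). Thus *Nanog*, *Zfp42* and *Tcl1* ran together by correlation, with *Nanog* and *Zfp42* at 0.968. By root mean square distance *Nanog* and *Tcl1* were 0.314 apart. *Zfp42* was nearer to *Tbx3* (0.375) than to *Nanog* (0.498) or *Tcl1* (0.564) by that measure.

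*Tfcp2l1* was most like *Acaa2* (0.999), a mitochondrial thiolase gene, *Tmem64* (0.995) and *Glb1* (0.986), and *Tbx3* was most like *Tdrp* (0.999), *Pramel6* at its other probe set (0.998) and *Cd9* (0.992). *Tfcp2l1* and *Tbx3* correlated at 0.982, and both had an ESC level above that of EpiLCs + PRDM14, as did *Eras*, by 0.84. *Eras* was most like *Mical1* (0.969), *Plekhb2* (0.964) and *Slc9b1* (0.958), and its correlations with the other 5 ran from 0.398 with *Nanog* to 0.666 with *Tfcp2l1*. Over the 4 arrays without the KD label its correlation was 0.998 with *Tfcp2l1* and 0.997 with *Tbx3*, so the lower values over 6 arrays rest on the KD-labelled pair. All these profiles share the same 6 RNA samples, and with so few points the named neighbours depend on the measure. By root mean square distance 8 of these neighbours stayed, and over the 4 arrays without the KD label 1 did.

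**Figure D5:**
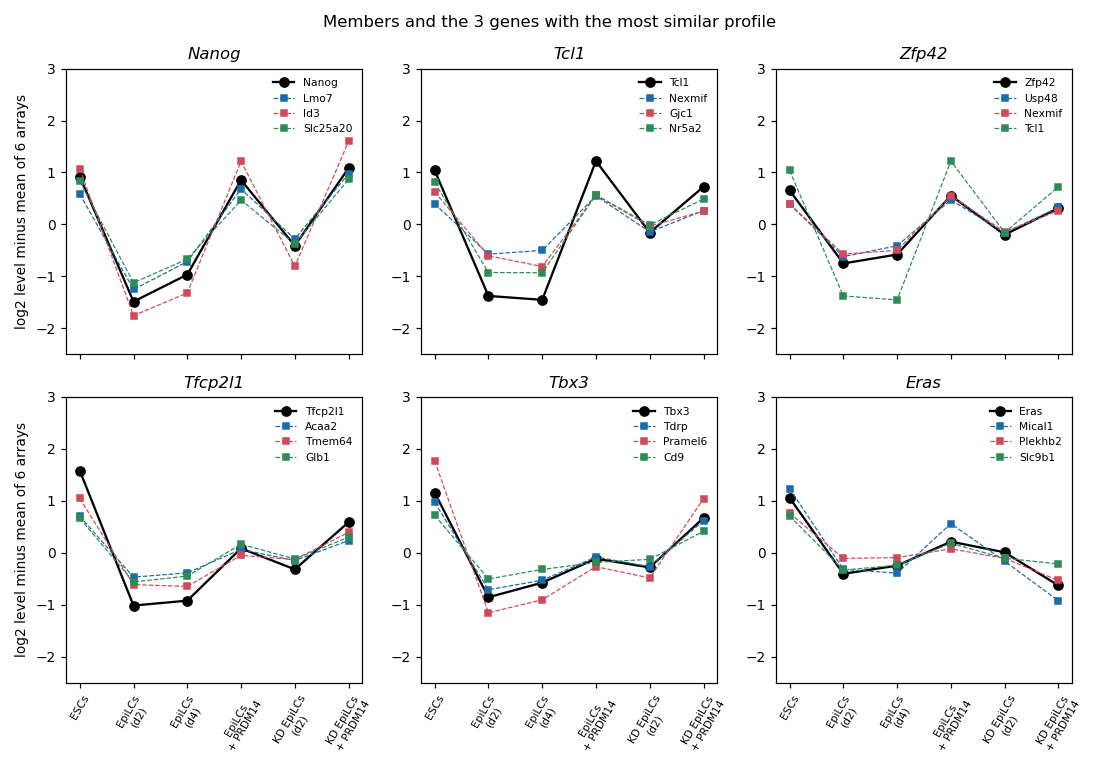
Level minus its mean over the 6 arrays (log2, vertical axis) for each of the 6 genes (black) and the 3 genes with the highest Pearson correlation to it (colours) on each array (horizontal axis, 1 array per condition). *Nanog*, *Tcl1* and *Zfp42* return to the ESC level on the EpiLCs + PRDM14 array, *Tfcp2l1* and *Tbx3* stay 2.82-fold and 2.41-fold below it, and *Eras* is lowest on the KD-labelled PRDM14 array.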

How the data were processed

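RNA of 6 cultures, 1 per condition, was hybridized to Affymetrix mouse arrays. The authors deposited log2 signals, summarised per probe set by robust multi-array average. The submitters' processing notes name Affymetrix Expression Console (version: not given in the sources used here). Arrays labelled KD have lower deposited medians, and whether they were normalized separately is not stated. Of 45141 probe sets, 104 controls were left out, and 28898 have 1 symbol in the platform annotation, 551 several and 15588 none.

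Each array's median was subtracted (Python 3.11.15, pandas 2.3.3, numpy 2.4.6), and a gene was read at its brightest probe set over the 6 arrays, with no filter on low signal. Differences of at least 1.5-fold were called in 8 pairs of arrays and in the difference of the PRDM14 differences. The code was checked on simulated data with an assumed noise, which cannot give the error of the calls in these data. The text names every probe set of the 6 genes, the 3 most similar genes to each, up to 3 genes of each list with the largest PRDM14 difference, family genes past 1.5-fold, and *Prdm14*, *Tet1*, *Tet2*, *Pou5f1* and *Fgf5*. The genes, lists and comparisons were chosen with earlier results of these data known. Promoter sequences come from RefSeq (GRCm38.p6), and motifs were searched on both strands.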

Additional observations from a re-analysis of the deposited data

Results flagged for a closer look

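*Eras* moved in opposite directions with PRDM14 in the 2 pairs of arrays. It was 0.6189 higher on the log2 scale in the scramble pair and was -0.6381, that is lower, in the pair labelled KD. There is 1 array per condition, so the difference between the pairs was not tested. Both values lie close to the threshold of 1.5-fold.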

How the results depend on the processing

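No paired analysis was possible because each condition has 1 array. No member changed sign among those called under any scaling. With a 2-fold threshold the number of genes called fell from 2 to 0 in KD EpiLCs + PRDM14 minus EpiLCs + PRDM14, and from 5 to 1 in KD EpiLCs + PRDM14 minus KD EpiLCs (d2). It also fell from 6 to 4 in EpiLCs + PRDM14 minus EpiLCs (d2). In ESCs minus EpiLCs + PRDM14 and in KD EpiLCs (d2) minus EpiLCs (d2) it fell from 3 to 2. A stricter threshold can only lower such counts. Under the other settings, which were values as deposited, quantile normalization, centring on housekeeping genes, the median over probe sets, any probe set and a filter on dim probe sets, every count stayed within 1.5 times. Of 54 single differences, 51 kept their side of the threshold as deposited, 50 with housekeeping centring and all 54 with quantile normalization or the median over probe sets. The settings over several probe sets could change only *Tbx3*, because every other gene had 1 probe set. The filter on dim probe sets could change no count, because the brightest probe set of each gene lay above the array median on all 6 arrays. With housekeeping centring the median of all genes was 0.26 in EpiLCs + PRDM14 minus EpiLCs (d4), from 0.002, and *Tbx3* and *Eras* became called at 0.72 each; in the values as deposited it was -0.19 at d2 and -0.20 with PRDM14 for KD-labelled minus scramble arrays, from 0.03 and 0.01. Precision is limited by having 1 array per condition.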
